A study of Mus musculus with 8 samples.

Results

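Rab proteins are small GTPases that sit on intracellular membranes and give each compartment its identity. In the GTP-bound state a Rab recruits effectors that move, tether or fuse vesicles. Exchange factors (GEFs) load it with GTP and GTPase-activating proteins (GAPs) return it to the GDP-bound state, in which a chaperone takes it off the membrane. In pituitary endocrine cells, Rab3 and Rab27 proteins are known for their place on secretory granules, and the gonadotrope stores luteinizing hormone and follicle-stimulating hormone in such granules.

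The Rab genes were taken as all entries of the count table whose symbol is Rab, a number and at most 1 letter with 1 further digit, which gave 59 of 55523 entries. All 59 are protein-coding genes in the GENCODE M21 annotation, and all 59 were among the 20152 genes tested. Expression profiles came from EGFP-expressing cells that were sorted from the pituitaries of Ad4BP-BAC-EGFP mice, 4 samples from males and 4 from females. In these mice EGFP is driven by a bacterial artificial chromosome carrying the regulatory regions of the gene for Ad4BP, another name of NR5A1, the nuclear receptor that marks the gonadotrope in the pituitary. Every sample of both sexes carries this transgene, none received a treatment according to the labels, and the age and the number of animals in each sample are not given in the sources used here. The p-values below therefore measure only the spread between these samples, which may be technical.

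The depth ranged from 18774578 to 31302588 counts per sample. A floor of 3 counts corresponded to between 0.0958 and 0.160 CPM (counts scaled by the normalised library size), a limit that covers counting error only. Male replicate 1 stood apart: its Nr5a1 level was 16.3 CPM, whereas the other 7 samples had between 584 and 1266 CPM. The study left this sample out when it compared male gonadotropes with the whole pituitary. Male replicates 2 to 4 (called males 2 to 4 below) were therefore compared with female replicates 1 to 4, and male replicate 1 is shown beside them. The summed CPM of 5 gonadotrope markers (Lhb, Fshb, Cga, Gnrhr and Nr5a1) was 21488 to 34863 in females, 67930 to 75717 in males 2 to 4 and 28423 in male replicate 1. That of 3 somatotrope markers (Gh, Ghrhr and Pou1f1) was 12414 to 57901 in females, 65451 to 142446 in males 2 to 4 and 30178 in male replicate 1. The 5 gonadotrope markers did not move together. Fshb was higher in each of males 2 to 4 than in every female (16894 to 30905 against 1402 to 5699 CPM), Nr5a1 was lower in each of them (584 to 801 against 862 to 1266 CPM), and Lhb, Cga and Gnrhr overlapped between the sexes. The sum of 3 thyrotrope markers (Tshb, Trhr and Dio2) was also higher in males 2 to 4, at 278 to 384 CPM against 84.6 to 224 CPM in females, with 105 CPM in male replicate 1. It was carried by Tshb (235 to 339 against 20.9 to 83.5 CPM), whereas Dio2 was lower in each of males 2 to 4 (39 to 49.5 CPM) than in every female (63.2 to 139 CPM). None of these 3 sums overlapped between females and males 2 to 4, and their part in the Rab differences below was not tested. By group medians the somatotrope sum was above the gonadotrope sum, at 49392 against 28784 CPM in females and 77240 against 69236 CPM in males 2 to 4. The sums of corticotrope and melanotrope markers (10175 to 28651 CPM) and of lactotrope markers (4693 to 18148 CPM) overlapped between the sexes. The samples thus held RNA of other pituitary cell types. In such bulk samples, fewer cells of a type and less RNA per cell cannot be told apart.

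Most Rab genes were expressed in the sorted cells. Of the 59, 51 reached 1 CPM in all 7 samples compared, and 8 did not. The levels of different genes were compared per kilobase of exon (CPM per kb), as the mean over the 7 samples. On this scale the median Rab gene had 11.3 CPM per kb. Rab7, which directs late endosomes to lysosomes, was the highest with 165 ± 42.5 CPM per kb (SD, n = 7). Rab2a and Rab1a, which act between the endoplasmic reticulum (ER) and the Golgi, followed with 135 ± 11.6 and 95.6 ± 21.5 CPM per kb. Rab3b, a secretory granule Rab, was the fourth with 83.3 ± 29.0 CPM per kb. Rab11a of recycling endosomes had 71.5 ± 16.9 CPM per kb, and Rab1b, the close relative of Rab1a, had 60.5 ± 38.0 CPM per kb. The post-Golgi genes Rab10 and Rab8a completed the 8 highest with 51.2 ± 4.2 and 44.9 ± 10.03 CPM per kb. Neighbours in this order overlapped within 1 SD, except Rab2a and Rab1a. At the other end, Rab44 had 0.065 ± 0.0754 CPM per kb.

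**Figure D1:**
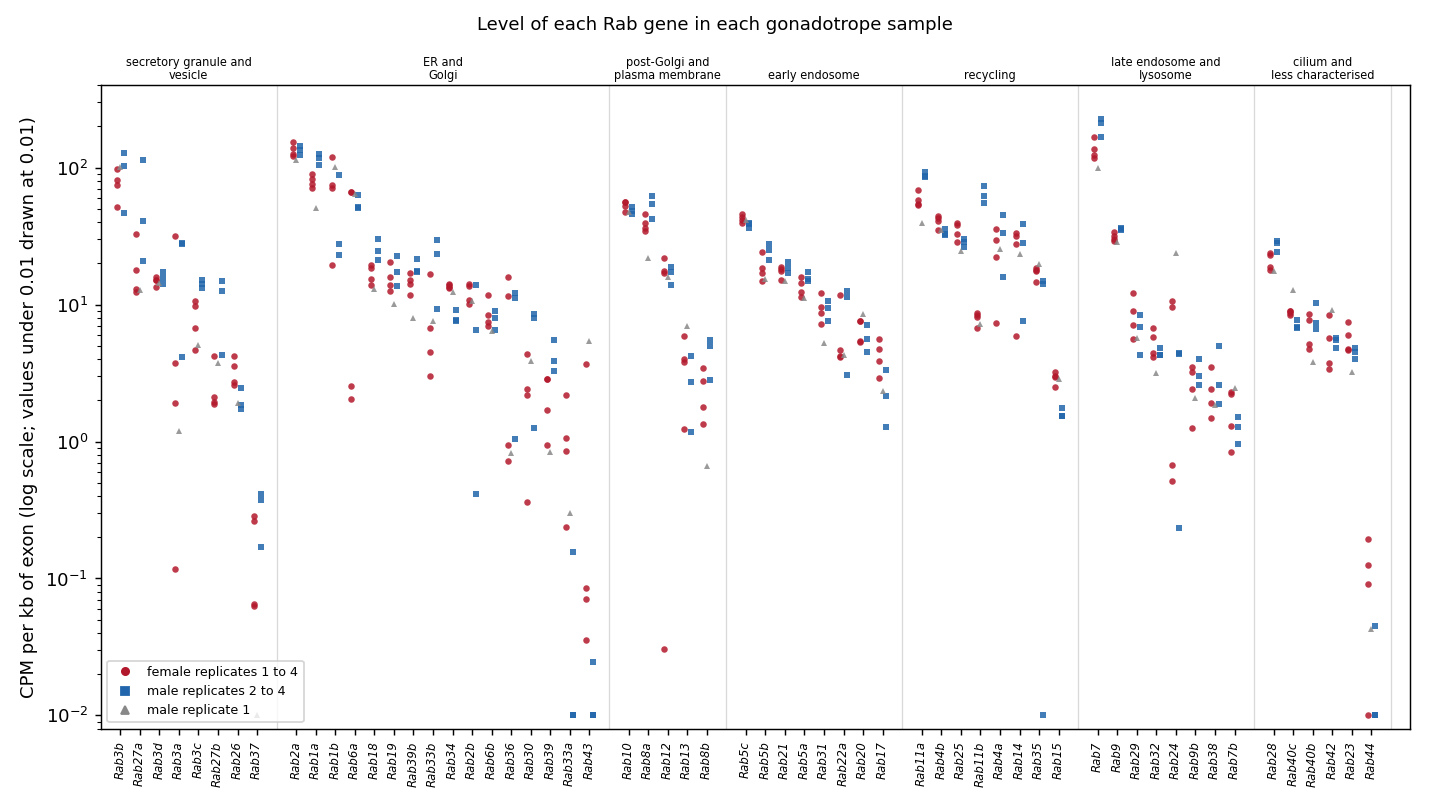
Level of each of the 59 Rab genes in each sample, in CPM per kilobase of exon on a log axis, grouped by the compartment in which the gene is known to act. Circles are female replicates 1 to 4, squares male replicates 2 to 4 and triangles male replicate 1; Rab7 has the highest mean (165 CPM per kb) and Rab11b is the gene whose squares lie furthest above its circles among genes with a narrow spread within each sex.

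The comparison of the sexes asks which Rab genes differ in level between sorted cells from males and from females. Rab11b was higher in males, and Rab34 and Rab15 were higher in females. These were 3 of the 59 genes (5.08%) with an adjusted p under 0.05 in edgeR's quasi-likelihood test, whereas the test called 2.34% of all genes. Below, edgeR stands for this test unless its exact test is named. One of the 59 was called as higher in males, against 0.983% of all genes, and 2 as higher in females, against 1.35% of all genes. The log2 fold change of male over female was above 0 for 32 Rab genes and below 0 for 27, with a median of 0.13 beside -0.03 over all genes tested. It was under 1 in size for 50 of the 59. Scaling by library size alone moved the median of all genes to -0.24 and that of the Rab genes to -0.07, and changed the sign of 7 Rab genes. At an unadjusted p under 0.05 the same edgeR test held 18 Rab genes, against 19.9% of all genes. DESeq2 called 7 Rab genes, against 11.6% of all genes. Its 4 calls in the male direction, against 5.29% of all genes, were Rab11b, Rab11a, Rab1a and Rab27b. Its 3 calls in the female direction, against 6.27%, were Rab34, Rab15 and Rab33a. The exact test of edgeR called 4 of the 59 Rab genes, Rab11b, Rab27b, Rab15 and Rab33a, against 1027 of all 20152 genes. With male replicate 1 included, edgeR called 0 of 56 Rab genes, against 0.342% of all genes, while 6 of the 56 had an unadjusted p under 0.05, against 10.2% of all genes.

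**Figure D2:**
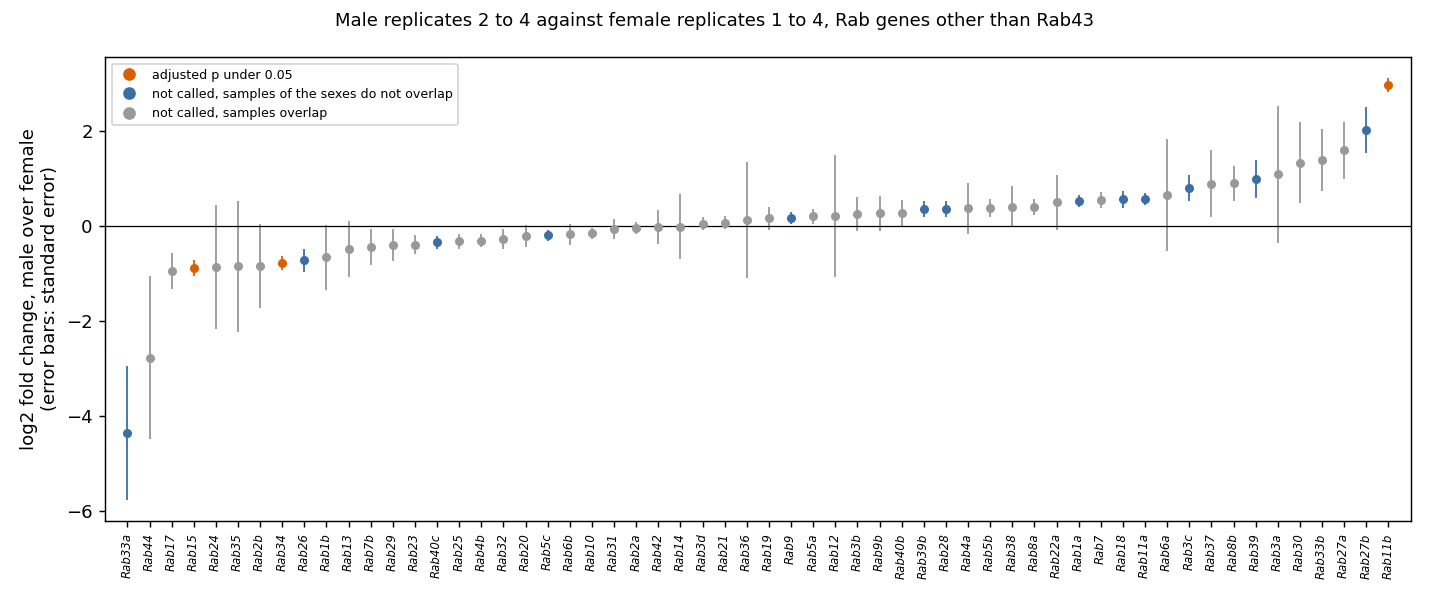
Log2 fold change of male replicates 2 to 4 over female replicates 1 to 4 for 58 Rab genes, with the standard error as the bar; Rab43, with 3 counts in all of males 2 to 4 together, is not drawn. Orange points are the 3 genes with an adjusted p under 0.05 (Rab15, Rab34 and Rab11b), blue points are genes whose male and female samples do not overlap, and grey points are the rest; the fitted values of Rab33a and Rab44 at the left rest on few counts in the male samples.

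Rab11b encodes a GTPase of the recycling endosome and is the close paralogue of Rab11a. The gene lies on chromosome 17 at chr17:33742484-33760530 (GRCm38, minus strand). Its level was 51.3, 41.7, 53.2 and 49.9 CPM in female replicates 1 to 4, and 448, 382 and 337 CPM in males 2 to 4. Every one of these males was far above every female, and male replicate 1, with 44 CPM, lay inside the female range. Males 2 to 4 averaged 389 ± 55.7 CPM (SD, n = 3) against a female mean of 49.0 ± 5.10 CPM (SD, n = 4), a ratio of 7.93. The log2 fold change was 2.96 (SE 0.15) and the adjusted p was 0.000826 in edgeR's quasi-likelihood test. Leaving out each of the 7 samples in turn gave between 2.85 and 3.04, with adjusted p between 0.0032 and 0.0068. With male replicate 1 included, the log2 fold change was 2.62 and the adjusted p 0.136 (edgeR), so that the call holds only without that sample. The summed gonadotrope, somatotrope and thyrotrope markers were likewise higher in males 2 to 4 than in females, with male replicate 1 inside the female range, whereas Nr5a1 and Dio2, members of these lists, were lower in males 2 to 4.

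Rab11b is the only symbol of its locus in the count table, but 13.6% of the 50-base words in its transcripts also occur in other genes. The processed pseudogene Rab11b-ps2 holds 8.87% of these words. It had 257, 360, 531 and 281 counts in the females, 351, 408 and 348 counts in males 2 to 4, and a log2 fold change of 0.04. The opposite-strand lncRNA Gm17251, which overlaps the start of Rab11b and shares 4.14% of the words, had a log2 fold change of 0.09. Neither entry passed the test (adjusted p = 0.943 and 0.864, edgeR). Words of Rab11b occur in 164 other genes, most of which are not shown here. The part of shared sequence in the counts of Rab11b was not tested.

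Rab11a, the other ubiquitous member of the pair, moved in the same direction by a smaller amount and did not pass edgeR's test. Its level was 161, 163, 204 and 174 CPM in the females and 261, 278 and 256 CPM in males 2 to 4. The sexes did not overlap, and male replicate 1, with 119 CPM, was below all of them. On the log2 scale the change was 0.57 (SE 0.12), with an adjusted p of 0.0662 in edgeR and 0.000702 in DESeq2. The difference between the changes of the 2 genes was not tested.

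The bases upstream of the pair are shown because the fitted changes of the paralogues had different sizes, a difference that was not tested. They are taken from RefSeq (GRCm38.p6), from 250 to 45 bases before the annotated start and on the minus strand, at chr9:64737801-64738006 for Rab11a and chr17:33760531-33760736 for Rab11b. Capitals mark the GC box GGCGGG, the CCAAT box CCAAT and the cAMP response half-site TGACG, each searched on both strands.
Rab11a: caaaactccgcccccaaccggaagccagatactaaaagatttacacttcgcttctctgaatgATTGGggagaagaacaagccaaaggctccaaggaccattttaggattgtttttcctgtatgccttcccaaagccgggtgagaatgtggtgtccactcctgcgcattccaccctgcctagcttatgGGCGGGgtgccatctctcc
Rab11b: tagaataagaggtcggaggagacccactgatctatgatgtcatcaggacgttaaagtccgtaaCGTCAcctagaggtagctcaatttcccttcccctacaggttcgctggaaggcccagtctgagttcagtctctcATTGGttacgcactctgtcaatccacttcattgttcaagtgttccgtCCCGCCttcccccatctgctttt
Each window held 1 GC box and 1 CCAAT box, and Rab11b also held 1 cAMP response half-site. Of 32851 RefSeq windows of the same length, 25.7% held the GC box, 29.3% the CCAAT box and 13.4% the half-site. Of the 60 windows of Rab genes, 43.3% held the GC box, 40.0% the CCAAT box and 30.0% the half-site. The NR5A1 half-site AAGGTCA was in neither window, in 0 of these 60 windows, which belong to 48 Rab genes, and in 3.46% of all windows. These are matches of letters in one window and say nothing about binding.

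Rab34, a Golgi-associated Rab that also acts in the building of primary cilia, was higher in females. The gene lies at chr11:78188430-78192193 (GRCm38, plus strand) and is alone in its locus. Its level was 33.9, 32.2, 33.0 and 31.8 CPM in the females and 18.1, 18.5 and 21.9 CPM in males 2 to 4. The sexes did not overlap, and male replicate 1, with 29.3 CPM, lay between them. The log2 fold change was -0.78 (SE 0.14) and the adjusted p 0.0479 (edgeR). The adjusted p was between 0.0724 and 0.163 when any 1 of the 7 samples was left out, and 0.359 with male replicate 1 included, so that the call was lost in each case.

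Rab15, which acts at early and recycling endosomes and is known from neurons, was also higher in females. The gene lies at chr12:76797960-76822908 (GRCm38, minus strand) and is alone in its locus. Its level was 11.6, 15, 13.8 and 13.6 CPM in the females and 8.16, 7.13 and 7.04 CPM in males 2 to 4. The sexes did not overlap, and male replicate 1, with 13.3 CPM, lay inside the female range. edgeR gave a log2 fold change of -0.89 (SE 0.17) and an adjusted p of 0.0487. Without any 1 of the 7 samples the adjusted p was between 0.0659 and 0.160, and with male replicate 1 it was 0.457. Rab15 overlaps the opposite-strand gene Fntb, with which it shares no 50-base word. Fntb had 11 counts in male replicate 3 and between 816 and 1449 counts in the other samples, while Rab15 in male replicate 3 had 189 counts beside 207 and 155 in male replicates 2 and 4. The summed level of 3 pituitary stem cell markers (Sox2, Sox9 and S100b) was also higher in females, at 244 to 383 CPM beside 138 to 173 CPM in males 2 to 4 and 305 CPM in male replicate 1. The sum of 4 stromal markers (Col1a1, Col1a2, Dcn and Lum) was 101 to 143 CPM in females and 95.6 to 99.4 CPM in males 2 to 4. The gap was narrow, and male replicate 1 had 89.5 CPM. Of these markers only Col1a1 was separated, at 5.37 to 13.1 CPM in females and 2.95 to 4.27 CPM in males 2 to 4. Col1a2, Dcn and Lum overlapped between the sexes. The part of both sums in the values of Rab34 and Rab15 was not tested.

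**Figure D3:**
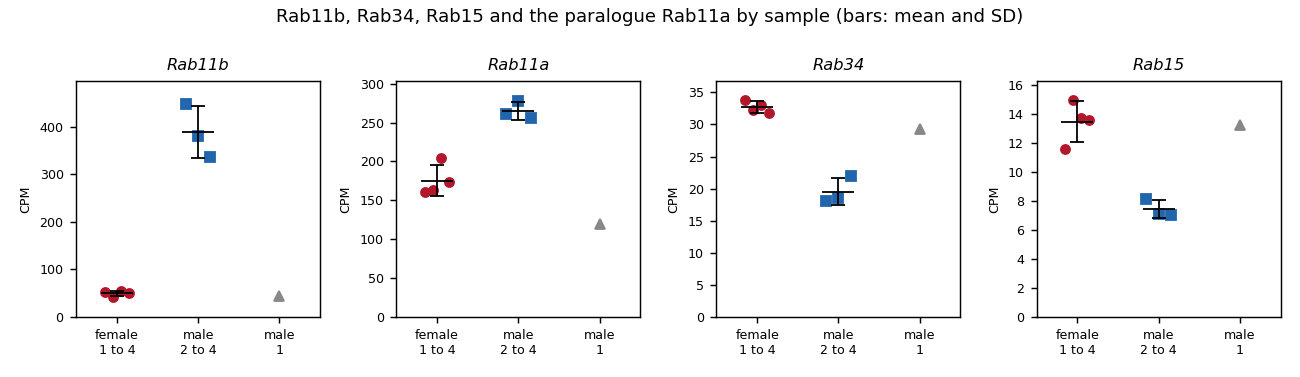
CPM of Rab11b, Rab11a, Rab34 and Rab15 in each sample, with the mean and SD of female replicates 1 to 4 and male replicates 2 to 4 as black bars. Male replicate 1 (grey triangle) has 44.0 CPM of Rab11b, inside the female range of 41.7 to 53.2, while male replicates 2 to 4 have 337 to 448.

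None of the 8 Rab genes of secretory granules and vesicles passed edgeR's quasi-likelihood test after adjustment, beside 2.34% of all genes, and 4 had an unadjusted p under 0.05 in it, beside 19.9% of all genes. DESeq2 called 1, Rab27b, beside 11.6% of all genes. Their log2 fold change was above 0 for 7 of the 8, with a median of 0.84, beside -0.03 over all genes tested. The samples of the sexes did not overlap for 3 of the 8 (Rab3c, Rab27b and Rab26), beside 22.3% of all genes tested. The summed level of the 8 genes was 383, 600, 615 and 636 CPM in the females, 771, 1366 and 728 CPM in males 2 to 4 and 574 CPM in male replicate 1.

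Rab27b and Rab27a tether granules at the plasma membrane through synaptotagmin-like and related effectors. Rab27b had 20.1, 45.1, 22.6 and 20.9 CPM in the females and 133, 160 and 46.0 CPM in males 2 to 4. The lowest male was just above the highest female, and male replicate 1, with 39.9 CPM, lay inside the female range. The log2 fold change was 2.01 (SE 0.48), with an adjusted p of 0.0769 in edgeR, 0.00729 in edgeR's exact test and 0.00191 in DESeq2. Rab27a had 1170, 2598, 1556 and 1607 counts in the females, and 3986, 11785 and 1791 counts in males 2 to 4, with 1128 in male replicate 1. The high values of both genes were in male replicates 2 and 3, but for Rab27a the sexes overlapped. Its log2 fold change was 1.59 (SE 0.61, adjusted p = 0.21 in edgeR) and lay between 0.66 and 2.01 when samples were left out.

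The 4 Rab3 genes encode proteins that bind granules and synaptic vesicles before fusion, and the differences between the 4 were not tested. Rab3c had 56.4, 81.4, 118 and 128 CPM in the females and 181, 170 and 159 CPM in males 2 to 4. The sexes did not overlap, with 61 CPM in male replicate 1, but the females differed from each other by more than the males did. In edgeR its log2 fold change was 0.79 (SE 0.28, adjusted p = 0.179). Rab3b, the most abundant Rab3 per kilobase, had 180, 263, 288 and 343 CPM in the females and 163, 450 and 365 CPM in males 2 to 4. Its lowest and highest values were both in males, male replicate 1 had 355 CPM, and the log2 fold change was 0.25 (SE 0.36, adjusted p = 0.778 in edgeR). Rab3d was the steadiest of all 59 Rab genes, with 56.2 to 66.9 CPM in the females, 59.8 to 72.2 CPM in males 2 to 4, 60.6 CPM in male replicate 1 and a coefficient of variation of 8.06% over the 7 samples. Its log2 fold change was 0.04 (SE 0.14, adjusted p = 0.905 in edgeR).

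Rab3a, the Rab3 best known from brain synapses, had the widest spread of the group on the log2 scale. It had 4.23, 8.34, 70.4 and 0.259 CPM in female replicates 1 to 4, and 62.1, 63.2 and 9.26 CPM in males 2 to 4. High and low samples thus occurred in both sexes, and the lowest female had 6 counts. Male replicate 1 had 2.66 CPM. Between the sexes the log2 fold change was 1.08 (SE 1.45, adjusted p = 0.754 in edgeR), and it was 3.36 (adjusted p = 0.21) without female replicate 3, the female with the high value. Rab26, a vesicle Rab that is linked to the maturation of secretory granules, was the one gene of the group with a fold change below 0. It had 7.70, 10.1, 12.0 and 7.35 CPM in the females and 6.97, 4.91 and 5.31 CPM in males 2 to 4. The sexes were separated by a narrow gap, male replicate 1 (5.41 CPM) lay among the males, and edgeR gave a log2 fold change of -0.73 (SE 0.25, adjusted p = 0.166 in edgeR). Rab37, a secretory Rab first described in mast cells, was low, with 0.338 to 1.51 CPM in the females and 0.906 to 2.21 CPM in males 2 to 4, and 0 counts in male replicate 1 (log2 fold change 0.89, SE 0.70, adjusted p = 0.557 in edgeR).

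**Figure D4:**
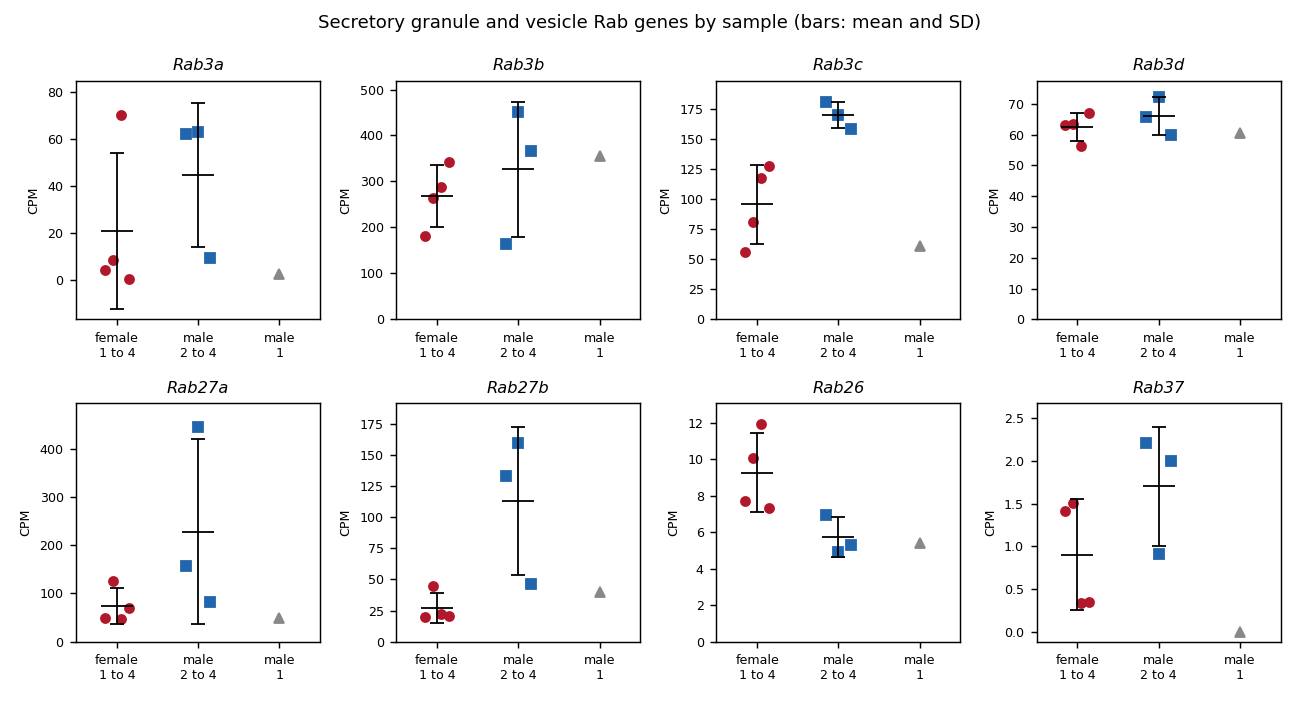
CPM of the 8 secretory granule and vesicle Rab genes in each sample, with the mean and SD of female replicates 1 to 4 and male replicates 2 to 4 as black bars and male replicate 1 as a triangle. Rab3d is alike in all samples (56.2 to 72.2 CPM), Rab3a has high and low samples in both sexes (0.259 to 70.4 CPM), and male replicates 2 and 3 have the highest Rab27b values (133 and 160 CPM).

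Among the 16 ER and Golgi Rab genes, edgeR's quasi-likelihood test called 1, Rab34, beside 2.34% of all genes. DESeq2 called 3, Rab34, Rab1a and Rab33a, beside 11.6% of all genes. Of the 16, 6 had an unadjusted p under 0.05 in edgeR, beside 19.9% of all genes. The fold change was above 0 for 9. Rab1a, needed for transport from the ER to the Golgi, had 312, 269, 341 and 291 CPM in the females and 451, 481 and 400 CPM in males 2 to 4. The sexes did not overlap, and male replicate 1 was the lowest sample with 194 CPM. The log2 fold change was 0.52 (SE 0.12), with an adjusted p of 0.0775 in edgeR and 0.00343 in DESeq2. Rab2a, which acts in the same pathway, had 260 to 328 CPM in the females and 265 to 305 CPM in males 2 to 4, with 241 CPM in male replicate 1 and a log2 fold change of -0.05 (SE 0.13, adjusted p = 0.898 in edgeR). Rab39, a Rab of the Golgi and of autophagy, had 2.82, 8.49, 8.44 and 5.01 CPM in the females and 11.5, 16.5 and 9.76 CPM in males 2 to 4. Males 2 to 4 did not overlap with the females, but male replicate 1, with 2.49 CPM, was below every female. The fit without it gave a log2 fold change of 0.99 (SE 0.41, adjusted p = 0.238 in edgeR). Rab33a, a Golgi and vesicle Rab, was near its detection limit, with 2.52, 1.22, 0.276 and 0.994 CPM in the females and 0, 0 and 0.182 CPM in males 2 to 4, with 0.349 CPM in male replicate 1. DESeq2 and edgeR's exact test called it as higher in females (adjusted p = 0.0122 and 0.0429), and edgeR's quasi-likelihood test did not (0.151).

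Of the 8 recycling Rabs, edgeR's quasi-likelihood test called 2, Rab11b and Rab15, beside 2.34% of all genes. DESeq2 called 3, these and Rab11a, beside 11.6% of all genes. Of the 8, 3 had an unadjusted p under 0.05 in edgeR, beside 19.9% of all genes. None of the 5 post-Golgi and plasma membrane Rabs, the 8 early endosome Rabs, the 8 late endosome and lysosome Rabs or the 6 cilium and less characterised Rabs was called by edgeR or by DESeq2, and 5 of these 27 genes had an unadjusted p under 0.05 in edgeR, beside 19.9% of all genes. The median log2 fold change of these groups was 0.21, 0.00, -0.05 and -0.18. Rab7 had 307, 356, 439 and 322 CPM in the females and 592, 553 and 439 CPM in males 2 to 4, with 259 CPM in male replicate 1. The lowest male equalled the highest female to within 1 CPM, and the log2 fold change was 0.54 (SE 0.17, adjusted p = 0.141 in edgeR). Rab8a, which carries cargo to the plasma membrane, had 162 to 215 CPM in the females and 196 to 290 CPM in males 2 to 4, and 103 CPM in male replicate 1 (log2 fold change 0.40, SE 0.17, adjusted p = 0.243 in edgeR). Rab8b, its paralogue, had 6.34 to 16.4 CPM in the females and 13.4 to 26.3 CPM in males 2 to 4 (log2 fold change 0.89, SE 0.37, adjusted p = 0.243 in edgeR). Rab10, known for the delivery of vesicles to the cell surface, had 166 to 198 CPM in the females and 160 to 183 CPM in males 2 to 4, with 167 CPM in male replicate 1 and a log2 fold change of -0.15 (SE 0.12, adjusted p = 0.542 in edgeR).

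Over the whole family, the samples of the sexes did not overlap for 17 of the 59 genes (28.8%), beside 22.3% of all genes tested. By direction, 10 of the 59 (16.9%) were higher in males, against 11.5% of all genes. The other 7 (11.9% of the 59) were higher in females, against 10.8% of all genes. They include Rab43, whose counts are described further on. The summed level of all 59 genes was 3820, 3680, 4695 and 4532 CPM in the females, 5815, 5786 and 5061 CPM in males 2 to 4 and 3779 CPM in male replicate 1. The 3 males were therefore above the 4 females in this sum, and they remained so without Rab11b, at 4723 to 5404 CPM against 3638 to 4642 CPM. Scaled by library size alone, the sexes overlapped, with 4018 to 4887 CPM in females and 4497 to 5355 CPM in males 2 to 4.

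Male replicate 1 was below every other sample for 21 Rab genes and above every other sample for 8. It lay inside the female range alone for 15, inside the male range alone for 3, inside both for 11 and between the sexes for 1. Among the genes with a mean of at least 5 CPM, the 5 furthest from the mean of male replicates 2 to 4, on the log2(CPM + 1) scale, were Rab3a (-3.24), Rab24 (3.22), Rab11b (-3.11), Rab36 (-2.49) and Rab8b (-2.36). Rab43, which is below that mean and is described further on, was further away (4.90). For Rab24, a Rab linked to autophagy, male replicate 1 had 47.9 CPM and the other samples had 0.473 to 21.4 CPM. For Rab8b it had 3.14 CPM, below the lowest female.

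Several Rab genes took either a high or a low value from sample to sample, in samples of either sex. Among the 53 Rab genes with a mean of at least 5 CPM, 13 (24.5%) differed by 2 or more log2 units within at least 1 sex, beside 16.0% of 12638 genes of that level. These 13 were chosen after their values were seen, and none had non-overlapping sexes. Rab6a, a Golgi Rab, had 178 and 195 counts in female replicates 1 and 2 but 8128 and 5745 in female replicates 3 and 4, and 4795 to 5530 in the 4 males. Rab12, which acts between recycling endosomes and lysosomes, had 3 counts in female replicate 3 and 933 to 1545 in the other samples. Rab35, a Rab of fast recycling, had 0 counts in male replicate 3, under the limit of 3 counts, and 849 to 1688 in the others. For Rab6a and Rab12 the low samples were females, and for Rab35 a male. Rab36, a Golgi Rab, had 92 to 171 counts in 4 samples of both sexes (female replicates 1 and 2 and male replicates 1 and 3) and 1638 to 3210 in the other 4. Rab14, which acts between the Golgi and endosomes, had 1640 counts in female replicate 2 and 2718 in male replicate 3, whereas the others had 7275 to 14773. Rab1b had 271 CPM in female replicate 4 but 44 CPM in female replicate 3, with a log2 fold change between the sexes of -0.66 (SE 0.68, adjusted p = 0.671 in edgeR).

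For Rab43 and Rab2b, counts of the Rab entry were low where those of another entry with part of the same sequence were high. The cause was not tested. Rab43, a Golgi Rab, shares its locus with Gm45140 and Isy1, and 74.5% of its 50-base words with Gm45140, which lies on the same strand. Rab43 had 11, 4, 660 and 9 counts in the females, 691 in male replicate 1 and 0, 0 and 3 in males 2 to 4. Gm45140 had 516, 512, 0 and 496 counts in the females, 0 in male replicate 1 and 551, 485 and 202 in males 2 to 4. Each sample thus had counts almost wholly in one of the 2 entries, and the 2 samples with 660 and 691 Rab43 counts had none in Gm45140. The sum of the 2 entries averaged 22.4 ± 2.05 CPM (SD, n = 4) over the females and 16.4 ± 6.41 CPM (SD, n = 3) over males 2 to 4. With the counts of the whole locus summed, the log2 fold change was -0.11 (adjusted p = 0.781, edgeR). The level of Rab43 itself is therefore uncertain, and no fold change is given for it.

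Rab2b, the paralogue of Rab2a, shares 54.5% of its words with Gm43766 on the opposite strand, and the library kit does not mark strand. Rab2b had 980, 916, 1928 and 1311 counts in the females, 1007 in male replicate 1 and 1464, 46 and 599 in males 2 to 4. Gm43766 had 1561 and 660 counts in male replicates 3 and 4, the samples in which Rab2b was low, and 16 to 83 in the others. The sum of both entries was 43.2 to 60.7 CPM in all 8 samples, and thus far steadier than either. Rab24 shares 49.6% of its words with the opposite-strand gene Prelid1, but there the sum ranged from 24.7 to 141 CPM. Rab4b, a recycling Rab, kept between 63.9 and 87.1 CPM in all samples, while Gm21983 of the same locus, with 56.0% of the words of Rab4b, ranged from 128 to 13962 counts. The Rab4b locus also held Mia, with 184 to 21992 counts, and Mir3101, with 1 count in every sample. The remaining locus partners were Gm47308 for Rab11a, Gm27186 for Rab27a, Traf7 for Rab26 and AC131796.2, with 0 counts in every sample, for Rab18. In all, 29 of the 59 genes shared no 50-base word with another gene, 10 shared at least 10% of their words, and 53 were alone in their locus.

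**Figure D5:**
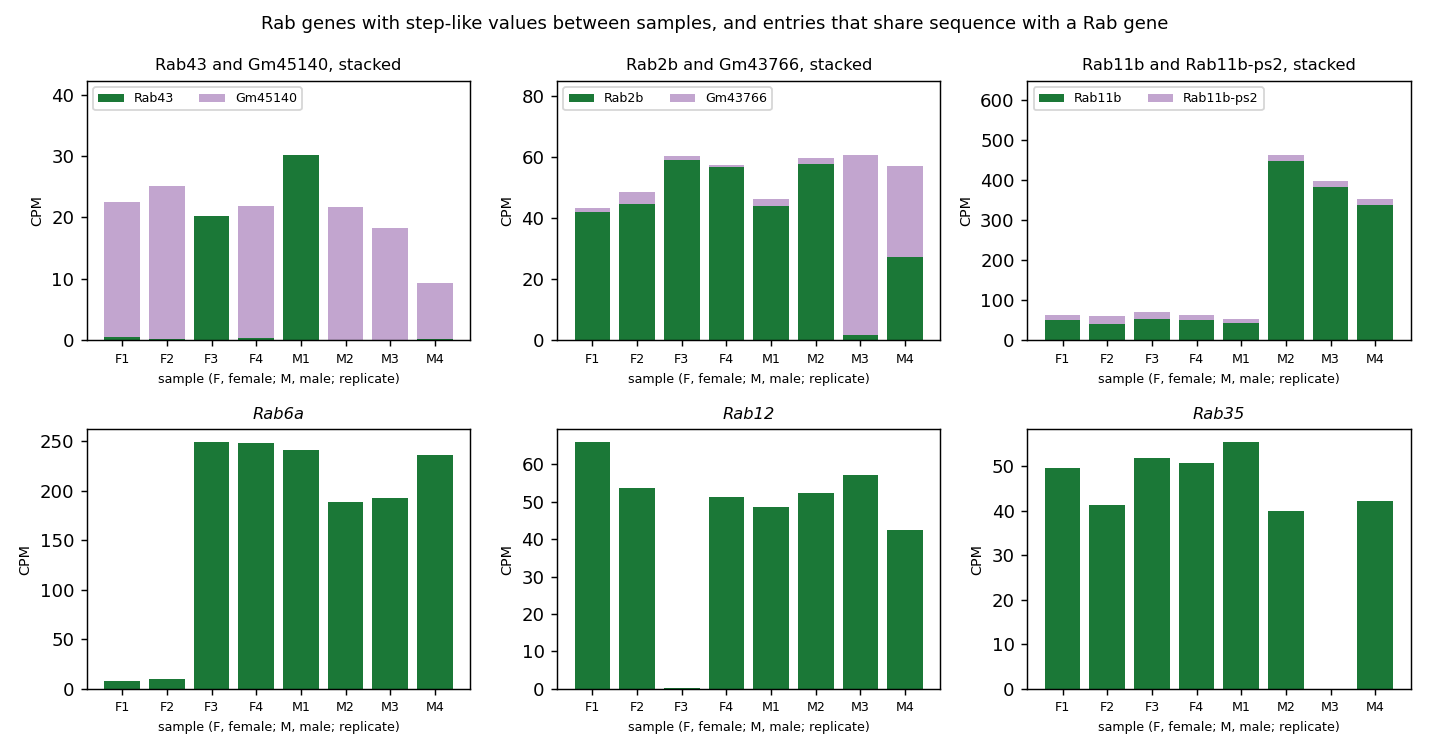
CPM by sample (F, female; M, male; number, replicate). In the upper row the Rab gene (green) is stacked with an entry that shares part of its sequence (violet). Gm45140 is low where Rab43 is high, Gm43766 is high where Rab2b is low, and Rab11b-ps2 stays low where Rab11b is high. The lower row shows Rab6a, with 7.61 and 9.51 CPM in female replicates 1 and 2, and Rab12 and Rab35, each of which is near 0 in 1 sample.

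The proteins that load, switch off and read Rab GTPases were described from a list of 105 genes, of which 101 were tested. edgeR called 4 of the 101 (3.96%), beside 2.34% of all genes. In the male direction it called 1 (0.99%, beside 0.983% of all genes) and in the female direction 3 (2.97%, beside 1.35%), and the median log2 fold change was -0.08. None of the 27 exchange factors, the 8 prenylation and recycling genes or the 3 Rab phosphorylation genes was among these 4. At an unadjusted p under 0.05, edgeR held 28 of the 101, beside 19.9% of all genes, namely 13 exchange factors, 7 GTPase-activating proteins, 6 effectors, 1 prenylation and recycling gene and 1 phosphorylation gene. DESeq2 called 17 of the 101, against 11.6% of all genes, among them 5 exchange factors (Ccz1, Dennd1b, Dennd1c, Rin1 and Rin2) and the prenylation gene Rabif. The edgeR call in males was Sytl3, a synaptotagmin-like effector of Rab27. It had 4.02, 5.02, 3.01 and 3.59 CPM in the females, 16.3, 29.4 and 11.9 CPM in males 2 to 4 and 12.1 CPM in male replicate 1. All 4 males were above all 4 females, with a log2 fold change of 2.26 (SE 0.34, adjusted p = 0.0327 in edgeR). Myrip, which links Rab27 on granules to myosin, went the other way, with 12.6, 11.1, 9.45 and 12.4 CPM in the females, 5.99, 5.47 and 4.00 CPM in males 2 to 4 and 5.02 CPM in male replicate 1. Again the 4 males did not overlap with the females, and the log2 fold change was -1.18 (SE 0.21, adjusted p = 0.0457 in edgeR). The other two edgeR calls were the GTPase-activating proteins Tbc1d30 and Tbc1d13. Tbc1d30 had 31.7 to 48.9 CPM in the females and 14.3 to 19.0 CPM in males 2 to 4 (log2 fold change -1.26, SE 0.22, adjusted p = 0.0442 in edgeR). Tbc1d13 had 9.42 to 12.9 CPM in the females and 4.10 to 5.86 CPM in males 2 to 4 (log2 fold change -1.17, SE 0.21, adjusted p = 0.0467 in edgeR). Male replicate 1, with 35 and 15.6 CPM, was not low for either of them. Of the 4 edgeR calls, Sytl3 kept an adjusted p under 0.05 in 1 of the 7 fits that leave out a sample, and the other 3 in none. With male replicate 1 included, the adjusted p was 0.059 for Sytl3, 0.0771 for Myrip, 0.361 for Tbc1d30 and 0.79 for Tbc1d13 (edgeR).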

How the data were processed

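RNA of sorted EGFP-expressing pituitary cells, which the study treats as gonadotropes (4 male and 4 female samples), was measured by RNA sequencing. The authors deposited 1 table of raw counts per gene. Per the methods of the study, reads were trimmed with cutadapt, mapped to mm10 with STAR and counted with featureCounts at default settings. The annotation behind the counts is not given in the sources used here, and entries carry locus names of the kind given by transcript assembly. No column was left unmapped. The study's methods name edgeR, there for pituitaries of mice lacking an Nr5a1 enhancer against controls and for gonadotropes against whole pituitary. The whole-pituitary samples were not used here. Here the sexes were compared: after filterByExpr and with TMM factors, edgeR 4.0.16 (R 4.3.3) tested male replicates 2 to 4 against female replicates 1 to 4 by the quasi-likelihood test. P-values were adjusted by Benjamini-Hochberg over all 20152 genes, with a threshold of 0.05. The SE is the size of the log2 fold change divided by the square root of F. CPM used TMM factors over all 8 samples, and lengths were exon unions of GENCODE M21 (GRCm38). Words of 50 bases were compared between its transcripts.

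The members, the lists and the rule for named genes were chosen with earlier results of these data known. Full values are given for called genes, the secretory group, the 8 highest per kilobase, the 6 with the largest change among genes whose sexes do not overlap, the 5 with male replicate 1 furthest from the other males among genes with a mean of at least 5 CPM, and genes called by DESeq2 (1.42.0). Alternatives were DESeq2, other scalings, filters and dispersion settings, edgeR's exact test, summed loci, all 8 samples, a replicate block and leaving out each sample.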

Additional observations from a re-analysis of the deposited data

Results flagged for a closer look

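In each sex, a sample was singled out where its gap to the nearest other of the 4 samples was a larger part of the whole range than Dixon's 95% limit allows. The 62 groups examined were 24 named Rab genes and 7 compartment sums in each sex, and 6 held such a sample. Chance gives about 1 in 20 among groups not chosen by their values, but several of the named genes were, so the count is not set against chance. Rab11a in male replicate 1 was at 119 CPM, beside 256 to 278 CPM in the other males. Rab27b in female replicate 2 was at 45.1 CPM, beside 20.1 to 22.6 CPM in the other females. Rab3a in female replicate 3 was at 70.4 CPM, beside 0.259 to 8.34 CPM. Rab43 stood out in female replicate 3 with 20.3 CPM, beside 0.195 to 0.470 CPM, and in male replicate 1 with 30.2 CPM, beside 0 to 0.136 CPM. The 8 secretory granule and vesicle Rab genes summed to 383 CPM in female replicate 1, beside 600 to 636 CPM in the other females.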

How the results depend on the processing

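Of all genes, edgeR's quasi-likelihood test called 471 (198 higher in males, 273 higher in females), DESeq2 2329, edgeR's exact test 1027, library size alone 808 (133 and 675), no filter beyond 1 count 177, all 8 samples 67 and the fits without 1 sample 88 to 171. Of Rab genes it called 3, against 7 by DESeq2, 4 by the exact test, 1 with no filter beyond 1 count, 0 with all 8 samples and 1 in each fit without 1 sample. That gene was Rab11b. Of regulators and effectors it called 4, against 17 by DESeq2, 8 by the exact test, 8 with library size alone, 1 with no filter, 0 with all 8 samples and 0 to 1 without 1 sample. Rab34 also lost its call with upper-quartile scaling and in the exact test, and Rab15 with robust dispersion. Of the 59 genes, 51 reached 1 CPM in each of the 7 samples and 41 reached 5 CPM.

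The replicate numbers gave no sign of pairing: the deviations of same-numbered males and females correlated at -0.0267, -0.00212 and -0.00163. Pairs with different numbers correlated between -0.031 and 0.0336. With so few samples per sex, this check cannot decide whether samples were prepared in pairs. With the replicate block, edgeR called 0 genes in all, 0 Rab genes and 0 regulators, while 2954 genes (14.7%) and 15 Rab genes had an unadjusted p under 0.05; Rab11b had a log2 fold change of 2.97 (adjusted p = 0.196). Without the block, 18 Rab genes had an unadjusted p under 0.05.

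Among the 24 named Rab genes, directions reversed only for genes that were not called. Rab genes outside these also changed sign, such as Rab19, Rab21, Rab5a, Rab12 and Rab9 with library size alone. The reversals among the named genes follow. Rab24 was at a log2 fold change of 0.62 with all 8 samples. Leaving out single samples put Rab2a between -0.086 and 0.044, above 0 without female replicate 4 or male replicate 4. Rab36 was at -0.073 with library size alone and -0.22 with all 8 samples, and between -0.29 and 0.88 with single samples left out, below 0 without female replicates 1 or 2 or male replicates 2 or 4. Rab3b was at -0.018 with the replicate block and ranged from -0.044 (without male replicate 3) to 0.57. Rab3d was at -0.17 with library size alone and ranged from -0.018 (without male replicate 3) to 0.10. The cause of these changes was not tested.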
